A study of Mus musculus with 12 samples.

Results

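Mature miRNA tags that carried 1 U at the 3′ end not found in the hairpin were examined in 12 small RNA libraries from mouse hippocampus. A tag is a distinct insert sequence, and its count is the number of reads that carried it. A tag of 19 nt or more was taken when it matched no annotated miRNA hairpin over its full length, matched a hairpin exactly without its last base, and ended in U. The U-added reads of each miRNA arm were expressed as a percent of its exact plus 1-base-added reads, called the U share here. Arms with 1000 or more exact reads over the 12 libraries were kept, which gave 235 arms (115 from the 3p side and 120 from the 5p side) of the 1716 arms that had any exact read. Of those 1716 arms, 633 belonged to predicted hairpins that have no miRNA name. At least 1 U-added read was found for 234 of the 235 arms, in 1844 distinct tags and 996075 reads. All U-added tags, without the limit on the arm, came to 2984 tags and 1003299 reads, beside 30041102 exact miRNA reads and 1181496 reads with an added A. The members were chosen by the last base of the tag and the exact reads of the arm, so that U is the last base is no finding, whereas the size of the U share, its position and its spread over libraries were not used by it.

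The libraries came from individual C57BL/6NCrl mice. The mice were untreated (NT) or were killed 0.5, 1, 3, 6 or 24 h after electroconvulsive shock (ECS), a current that induces a seizure and depolarizes neurons across the brain. Each condition had 2 libraries, with suffix -1 for the first time course and -2 for the second, so that each time course held 6 libraries. The whole hippocampus was used, and a difference in its cell types and a difference within a cell type cannot be told apart. Accepted reads ranged from 1897490 to 7657222 per library. NT-1 stood apart in read length, with 51.5% of its exact miRNA reads at 18 or 19 nt, whereas this share was 4.55% to 16.996% in the other 5 libraries of the first time course and 0.915% to 3.79% in the second. A summary within the study lists the known miRNA totals of the NT libraries in the opposite order to the deposited labels, which were used here, so every value set against NT-1 or NT-2 carries this doubt. The comparison of the time courses is therefore also given without the NT libraries.

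A mature miRNA is cut from its hairpin by Drosha and Dicer, and its ends follow the hairpin sequence unless a base is added or removed later. The terminal uridylyltransferases TUT4 (Zcchc11) and TUT7 (Zcchc6) add U to the 3′ ends of precursor and mature miRNAs, and related enzymes such as PAPD4 add A. The 3′ end of a 3p arm is also the 3′ end of the precursor, whereas the 3′ end of a 5p arm is made by Dicer. An added U can be seen only where the next base of the hairpin is not U. The 3′ adapter of the small RNA kit used for such libraries also begins with U, so an added U and a base of the adapter left on the insert cannot be told apart from the tag alone.

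The most abundant U-added tag is shown for the arms on which the results turn, 5′ to 3′ with T for U. Bases 2 to 8 of each tag and the added base at the 3′ end are in capitals. Bases 2 to 8 are the seed of the tag as sequenced. Its 5′ start was not matched to the annotated mature start, so for some arms the capitals may be shifted from the annotated seed. Arms that share a seed are given together, starting with miR-181, let-7, and the pair miR-152 and miR-148b.
miR-181a-5p: aACATTCAacgctgtcggtT
miR-181b-5p: aACATTCAttgctgtcggtT
miR-181d-5p: aACATTCAttgttgtcggtT
let-7f-5p: tGAGGTAGtagattgtataT
let-7g-5p: tGAGGTAGtagtttgtacaT
let-7c-5p: tGAGGTAGtaggttgtatgT
let-7i-5p: tGAGGTAGtagtttgtgctgttT
miR-152-3p: tCAGTGCAtgacagaacttggT
miR-148b-3p: tCAGTGCAtcacagaactttgtT
miR-132-3p: tAACAGTCtacagccatggtcgT
miR-212-3p: tAACAGTCtccagtcacggccaT
miR-26a-5p: tTCAAGTAatccaggataggctT
miR-26b-5p: tTCAAGTAattcaggataggttT
miR-27a-3p: tTCACAGTggctaagttccT
miR-27b-3p: tTCACAGTggctaagttctT
miR-24-3p: tGGCTCAGttcagcaggaacagT
miR-124-3p: tAAGGCACgcggtgaatgccaT
miR-126a-3p: cGTACCGTgagtaataatgcgT
miR-495-3p: aACAAACAtggtgcacttcttT
miR-345-3p: cCTGAACTaggggtctggagT
miR-361-5p: tTATCAGAatctccaggggtaT
miR-135a-2-3p: tGTAGGGAtggaagccatgaaT
miR-770-3p: tGGGCCTGacgtggagctggT
miR-140-3p: aCCACAGGgtagaaccacggaT

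The part of these tags without the added base lay at the following positions of GRCm38, with the overlapping genes of GENCODE M21. For miR-181a-5p these were chr1:137966468-137966486 (+, intron of the non-coding Gm4258) and chr2:38852741-38852759 (+, antisense to an intron of Nr6a1), and for miR-181b-5p chr1:137966650-137966668 (+, exonic in the non-coding A430106G13Rik) and chr2:38853845-38853863 (+, antisense to an intron of Nr6a1). The miR-181d-5p tag lay at chr8:84178763-84178781 (-, intron of Nanos3). The let-7f-5p tag matched chr13:48537892-48537910 (-, exonic in the non-coding 6720427I07Rik) and chrX:151912353-151912371 (+, intron of Huwe1), let-7g-5p chr9:106178846-106178864 (+, intron of Wdr82) and let-7i-5p chr10:122985698-122985719 (-, exonic in the pseudogene D630033A02Rik). The let-7c-5p tag matched chr15:85706616-85706634 (+, exonic in the non-coding Lncppara) and chr16:77599672-77599690 (+, intron of the non-coding Mir99ahg). The miR-24-3p tag matched chr8:84208875-84208896 (+, no overlapping gene) and chr13:63301251-63301272 (+, exonic in 2010111I01Rik), miR-27b-3p chr13:63300760-63300778 (+, exonic in the same gene) and miR-27a-3p chr8:84208727-84208745 (+, no overlapping gene). For miR-152-3p it was chr11:96850439-96850459 (+, intron of Copz2) and for miR-148b-3p chr15:103285185-103285206 (+, intron of Copz1). The miR-132-3p and miR-212-3p tags lay at chr11:75173723-75173744 and chr11:75173443-75173464 (+, intron of the non-coding 1700016P03Rik). Those of miR-26a-5p lay at chr9:119031811-119031832 (+, intron of Ctdspl) and chr10:126995543-126995564 (+, intron of Ctdsp2), and that of miR-26b-5p at chr1:74394324-74394345 (+, intron of Ctdsp1). The miR-124-3p tag matched chr2:180894083-180894103 (+, no overlapping gene), chr3:17795723-17795743 (+, intron of Mir124-2hg) and chr14:64590709-64590729 (+, exonic in Mir124a-1hg). The miR-126a-3p tag lay at chr2:26591403-26591423 (+, exonic in Egfl7), miR-495-3p at chr12:109718796-109718816 (+, no overlapping gene), miR-345-3p at chr12:108837027-108837046 (+, intron of Slc25a47) and miR-361-5p at chrX:113074868-113074888 (-, intron of Chm). The miR-135a-2-3p tag lay at chr10:92072104-92072124 (-, intron of Rmst), miR-770-3p at chr12:109563746-109563765 (+, exonic in Meg3) and miR-140-3p at chr8:107551289-107551309 (+, exonic in Wwp2).

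Pooled over the 235 arms, the U share was 5.49% in NT-1, 3.63% in 0.5h-1, 5.68% in 1h-1, 3.53% in 3h-1, 5.14% in 6h-1 and 2.99% in 24h-1. In the second time course it was 2.41% in NT-2, 3.70% in 0.5h-2, 2.96% in 1h-2, 2.29% in 3h-2, 2.23% in 6h-2 and 2.13% in 24h-2. The first time course was higher at 5 of 6 time points (4.41% ± 1.16 against 2.62% ± 0.606, SD, n = 6 each), and 0.5 h was the exception. The counting error was much smaller than these differences, as shown by the widest Wilson 95% interval, 5.08% to 5.20% in 6h-1, which covers counting error only because the reads were amplified without molecular identifiers. Over all ends, the added U was more frequent than an added C or G in 12 of 12 libraries and more frequent than an added A in 4 of 12. Only 27.2% (24h-2) to 85.1% (NT-1) of the reads lay at ends where an added U can be seen. The ends that hide another base are different ones, so these counts do not compare the bases at matched ends. Substitution to U at inner positions of the tags, a measure of sequencing error, was seen at 0.193% to 0.660% of the reads per position.

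The U share differed widely between arms. The median over the 235 arms of each arm's median over libraries was 2.82%, beside 3.12% for an added A, 0.406% for C and 0.259% for G. The median lay under 1% in 51 arms, from 1% to 5% in 120, from 5% to 10% in 37 and at 10% or more in 27. The 10 highest were miR-181b-5p (47.0%), miR-495-3p (33.7%), miR-181a-5p (28.0%), miR-181d-5p (27.3%), miR-345-3p (22.3%), miR-361-5p (20.8%), miR-135a-2-3p (19.3%), miR-770-3p (18.2%), miR-126a-3p (18.1%) and miR-212-3p (17.5%). For miR-495-3p, a miRNA of the imprinted Dlk1-Dio3 region, 77.6% of the exact reads ended at the last base of the annotated hairpin. Its next genomic base was not analysed here, so its U may be encoded. At the low end, miR-382-3p had 0 U-added reads beside 39612 exact reads, but 99.7% of those exact reads ended where the next hairpin base is U.

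Visibility set much of the low end. In 77 of the 235 arms, more than 50% of the exact reads ended before a U of the hairpin, where an added U looks like a longer exact tag. The neuronal miR-128-3p had a median U share of 0.0719%, with 98.1% of its exact reads at such ends. When only visible ends were counted, its median rose to 1.53%. The same change took let-7f-5p from 1.23% to 10.9% and let-7g-5p from 0.526% to 12.6%. Neuronal miR-124-3p, with 0.000389% of its exact reads at such ends, stayed at 9.09%. Over all arms pooled, the U share of visible ends ran from 4.89% in 3h-1 to 9.52% in 0.5h-2, and it was higher in the second time course at 4 of 6 time points (6.30% ± 1.31 against 7.59% ± 1.12, SD, n = 6 each), the opposite order to that over all ends.

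The U-added tags fell into 2 length classes. The most abundant U-added tag was 20 nt long in 104 arms, 21 nt in 20, 22 nt in 57 and 23 nt in 43. Reads of 20 nt, a 19-nt start of the miRNA followed by U, made up 42.3% of the U-added reads and those of 21 nt or more 55.6%. The class of 20 nt held 54.3% (24h-1) to 89.7% (6h-1) of the U-added reads in the first time course and 16.3% (0.5h-2) to 45.0% (6h-2) in the second, so that the 2 ranges did not overlap. Counted in tags of 21 nt or more alone, the pooled U share had a mean of 1.09% ± 0.515 in the first time course and of 1.96% ± 0.708 in the second (SD, n = 6 each), which was the higher at 6 of 6 time points. The part of 20-nt tags among U-added reads was thus higher in the first time course, and the U share in longer tags in the second. These are unlike measures, and the first is not a U share of shortened ends. Reads at ends where an added U can be seen also differed, at 59.1% to 85.1% in the first and 27.2% to 39.2% in the second time course.

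The miR-181 family carried a large part of the short class. The 5p arms of miR-181a, miR-181b and miR-181d together held 133431 U-added reads, which is 13.4% of all, and 98.2% to 99.4% of their U-added reads were a single 20-nt tag. The U share of miR-181b-5p was 22.2% in NT-1, 81.7% in 0.5h-1, 78.7% in 1h-1, 77.9% in 3h-1, 73.7% in 6h-1 and 72.3% in 24h-1. In the second time course it was 40.5% in NT-2, 39.1% in 0.5h-2, 37.5% in 1h-2, 36.0% in 3h-2, 53.4% in 6h-2 and 38.4% in 24h-2. The 5 ECS libraries of the first time course lay above all others, and NT-1 lay below all others. For miR-181a-5p the same 5 libraries lay between 57.3% and 75.1%, NT-1 at 18.4% and the second time course between 19.97% and 33.2%. For miR-181d-5p these values were 49.2% to 59.8%, 14.7% and 17.4% to 27.8%. Without the miR-181 arms the pooled U share was 4.18% in NT-1, 2.50% to 3.48% in the ECS libraries of the first time course and 2.03% to 3.62% in the second.

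The 20-nt tag of miR-181 differs from the hairpin at its last base, which is G in the hairpin. Among 20-nt tags of miR-181a-5p that kept the first 19 bases, U was the last base in 62.6% to 81.1% during the first time course and in 22.3% to 36.5% during the second. Reads that stopped after the 19 bases without the U were few outside NT-1. In 0.5h-1, 99 reads of miR-181a-5p ended there, 7173 had the added U and 1381 had the G of the hairpin. In NT-1, 23530 reads ended there, 6719 had the added U and 3215 had the G. Reads of the same length that matched the hairpin up to the last 2 bases and differed at the first of these were also common for miR-181a-5p. Their last base was not checked against the hairpin. They made up 41.8% to 53.4% in the ECS libraries of the first time course, 15.4% in NT-1 and 30.2% to 35.3% in the second. For miR-181b-5p they made up 34.2% to 47.7%, 13.5% and 18.9% to 25.96%. Addition of U to a shortened miRNA and replacement of the last base during library preparation or sequencing cannot be told apart from these counts. The median U share fell to 0.524% for miR-181a-5p and 0.633% for miR-181b-5p when only tags of 21 nt or more were counted.

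The let-7 family showed the same short tag, with G as the replaced hairpin base. The 20-nt tag made up 94.9% of the U-added reads of let-7f-5p, 95.3% of let-7g-5p and 98.3% of let-7c-5p. The U share of let-7g-5p was 2.38% in NT-1, 0.820% in 0.5h-1, 1.82% in 1h-1, 1.32% in 3h-1, 4.46% in 6h-1 and 0.853% in 24h-1. It was 0.146%, 0.187%, 0.132%, 0.118%, 0.231% and 0.126% in the second time course in the same order. All libraries of the first time course were thus above all of the second. The member let-7i-5p differed in that its most abundant U-added tag was the mature sequence of 22 nt with U (65.0% of its U-added reads), in place of the G of the hairpin. Its U share ran from 2.29% to 9.46% in the first and from 2.57% to 11.1% in the second time course, and the time courses overlapped.

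The U share was next set against the distance from the annotated mature end. Among ends where an added U can be seen, the U share at the RefSeq mature end was 2.94% in the first and 8.73% in the second time course. At ends 1 base longer it was 5.21% and 9.998%, and at ends 1 base shorter 0.888% and 6.10%. At ends 2 bases shorter it was 5.47% and 3.81%, with the first time course the higher. At ends 3 bases shorter, which include the 20-nt tags of let-7c-5p, let-7f-5p and let-7g-5p, it was 13.6% and 27.3%. At ends 4 and 5 bases shorter, which include those of miR-181, it was 17.2% and 50.5% in the first and 15.9% and 52.8% in the second time course, but 6.82%, 4.69%, 8.60% and 6.40% in the same order without the miR-181 arms. These shares pool reads over arms, of which 199 of 235 had a RefSeq mature end. Over all their ends, let-7c-5p, let-7f-5p and let-7g-5p had lower U shares in the second time course (log2 ratios -1.71, -1.99 and -3.42). Their U share at the end 3 bases shorter alone was not tested.

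An example at the mature end was miR-24-3p, a broadly expressed miRNA of the miR-23/27/24 clusters, whose U-added tag ended in U where both hairpins have G. Its U share was 6.54% in NT-1, 4.38% in 0.5h-1, 6.05% in 1h-1, 3.00% in 3h-1, 4.87% in 6h-1 and 3.27% in 24h-1. In the second time course it was 14.0% in NT-2, 38.7% in 0.5h-2, 36.3% in 1h-2, 36.0% in 3h-2, 14.4% in 6h-2 and 26.7% in 24h-2. All 6 libraries of the second time course were above all of the first. The tag with U held 19751 reads over all libraries, against 24878 for the mature sequence without it and 33 for the tag with the G of the hairpin. For miR-152-3p the U share ran from 1.12% to 6.57% in the first and from 12.2% to 26.3% in the second time course, without overlap. Its tag with U held 24449 reads, the mature sequence 92123 and the tag with the hairpin's base 781. For the endothelial miR-126a-3p, the tag with U (1069 reads) outnumbered the same tag without it (940 reads). Over all arms, this was so for 9 of the 128 arms whose leading U-added tag had 21 nt or more and for 15 of the 106 arms where it had 19 or 20 nt.

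The U share of each arm was compared between the time courses, with the time point as covariate. Of 189 arms tested, 68 differed (36.0%, edgeR's quasi-likelihood test on U-added counts with the arm total as offset, adjusted p under 0.05), of which 44 (23.3%) were higher and 24 (12.7%) lower in the second. Among arms whose leading U-added tag had 20 nt or fewer, 27 of 85 differed, 4 higher and 23 lower in the second. Among those with 21 nt or more, 41 of 104 differed, 40 higher and 1 lower. The leading tag was itself taken from the reads of these libraries, and 20-nt tags made up more of the U-added reads in the first time course. The directions in these 2 groups of arms therefore follow in part from the grouping. In tags of 21 nt or more alone, 83 of 153 arms differed (54.2%), 81 of them higher (52.9%) and 2 lower (1.31%) in the second time course. Without both NT libraries the counts were 73 of 187 arms (46 higher, 27 lower), and with tags of 21 nt or more 79 of 150 (77 higher, 2 lower). The count fell to 28 without 1h-1 and to 26 without 1h-2. The median SE of the log2 ratio was 0.42. Some arms met the filter of 10 U-added counts in 2 libraries only through the second time course, among them miR-130a-3p, miR-17-3p and miR-148b-3p. Others, such as miR-384-3p, met it only through the first. Such arms could hardly be called in the other direction, so the split into higher and lower depends in part on the filter.

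The largest rise in the second time course was that of miR-148b-3p, which shares its seed with miR-152-3p. Its U share averaged 0.240% ± 0.221 (SD, n = 5, leaving out 1 library with under 100 reads of the arm) during the first time course. It averaged 8.50% ± 4.33 (SD, n = 6) during the second, a log2 ratio of 4.78 (SE 0.61, edgeR's quasi-likelihood test, adjusted p = 0.000536). For miR-128-3p the means were 0.0196% and 0.218% (log2 ratio 4.17, SE 0.82, edgeR adjusted p = 0.00559), higher at 6 of 6 time points. The smooth muscle miRNA miR-143-3p rose from 1.81% ± 2.10 to 10.8% ± 4.34 (SD, n = 6 each, log2 ratio 3.45, edgeR adjusted p = 0.00703). The ratios of miR-130a-3p, miR-298-5p, miR-17-3p, miR-135a-2-3p, miR-221-5p and miR-152-3p lay between 2.54 and 3.19 on the log2 scale. Some of these ratios rest on few U-added reads in the first time course. For miR-148b-3p there were 3 in NT-1, 1 in 1h-1, 2 in 24h-1 and 0 in the other libraries of that course. For miR-130a-3p there were 2 in 1h-1 alone, and for miR-17-3p 2 in 0.5h-1 and 1 in 1h-1. That of miR-24-3p was 2.52 (SE 0.40, edgeR adjusted p = 0.0014), and with tags of 21 nt or more it was 4.20 (SE 0.56, edgeR adjusted p = 0.000972). That of miR-140-3p was 2.28 (SE 0.40, edgeR adjusted p = 0.00247). In the other direction, let-7g-5p fell by 3.42 on the log2 scale (SE 0.38, edgeR adjusted p = 0.000222), from a mean of 1.94% to 0.157%. Its arm total includes reads at ends where an added U cannot be seen. Over all arms, 59.1% to 85.1% of the reads lay at visible ends in the first time course and 27.2% to 39.2% in the second. This fall does not show that U was added less often at visible ends.

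Of the 9 let-7 and miR-98 5p arms, 6 were lower in the second time course and none was higher, beside 24 lower (12.7%) and 44 higher (23.3%) of the 189 arms tested (median log2 ratio -1.32, beside 0.33 over all arms tested). Of the 9, 5 could be tested with tags of 21 nt or more, and 1 was higher, beside 81 of 153 arms (52.9%). The arm totals in both counts include reads at ends where an added U cannot be seen. For miR-181a-5p the log2 ratio was -1.20 (SE 0.36, edgeR adjusted p = 0.0242), and for miR-181b-5p -0.65 (SE 0.35, adjusted p = 0.174). Both were also lower in the second time course with tags of 21 nt or more, at -1.66 and -2.92 (adjusted p = 0.044 and 0.00921), and these were the 2 arms called lower there. The libraries of the first time course held 4.55% to 51.5% of their exact reads at 18 or 19 nt and those of the second 0.915% to 3.79%. The part of this difference in the result was not tested beyond the counts in tags of 21 nt or more and an alternative with only visible ends in the arm total. The values of that alternative for single arms are not given here.

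The added U was compared with the other added bases within each library, only at ends where neither base is the next base of the hairpin. Of 195 arms tested against A, 115 differed (59.0%, edgeR's quasi-likelihood test with the library as block, adjusted p under 0.05), with U higher in 67 (34.4%) and lower in 48 (24.6%). In tags of 21 nt or more 99 of 167 arms differed (59.3%) and the split turned, with U higher in 27 (16.2%) and lower in 72 (43.1%). With all ends counted it was also turned, with U higher in 52 and lower in 73 of 226 arms. Against C, 155 of 166 arms differed (93.4%), with U higher in 154 (92.8%) and lower in 1 (0.602%). Counting only tags of 21 nt or more, 117 of 125 differed from C (93.6%), 114 higher (91.2%) and 3 lower (2.40%). Against G, 153 of 159 arms differed (96.2%), with U higher in 146 (91.8%) and lower in 7 (4.40%), and among tags of 21 nt or more 119 of 123 (96.7%), 111 higher (90.2%) and 8 lower (6.50%).

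U was higher than A in all 9 let-7 and miR-98 5p arms, beside 67 of the 195 arms tested (34.4%), by a log2 ratio of 2.46 (SE 0.25) for let-7c-5p and 2.65 (SE 0.31) for let-7i-5p, whereas with tags of 21 nt or more U was higher in 2 and lower in 1 of the 6 that could be tested, beside 16.2% higher and 43.1% lower over all arms. For miR-132-3p, an activity-regulated neuronal miRNA, the log2 ratio was 3.07 (SE 0.34, edgeR adjusted p = 7.52e-08) with all tags and 3.08 (SE 0.34, edgeR adjusted p = 5e-08) with tags of 21 nt or more. For miR-152-3p it was 1.42 and 1.43 in the same order, and for miR-24-3p 1.13 and 1.503. For miR-181b-5p it was 3.84 with all tags and 0.30 (edgeR adjusted p = 0.483) with tags of 21 nt or more. For miR-181a-5p it turned from 2.81 to -3.56. Arms with more added A than U included miR-30d-5p, at -3.34 (SE 0.50), and miR-30a-5p, at -3.16 (SE 0.48), and both stayed so with tags of 21 nt or more, at -4.28 and -4.39. The endothelial miR-126a-3p had a ratio of -0.62 (SE 0.34, edgeR adjusted p = 0.119), with median shares of 18.1% for U and 18.8% for A. The arm with less U than C was miR-128-3p, at -7.76 (SE 0.65), where few ends allow the comparison. Among the 7 arms with less U than G were let-7a-5p (-9.69), let-7c-5p (-5.75), let-7g-5p (-3.56), let-7f-5p (-2.47), miR-181b-5p (-4.37) and miR-181a-5p (-1.76). This comparison leaves out ends where the next hairpin base is G. The most abundant U-added tags of these arms, let-7a-5p aside, have U in place of such a G and were not counted in it. Their ratios describe the remaining ends only and do not show less added U than G for the whole arm. Whether this also holds for let-7a-5p was not tested.

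The base before the added U and the base after it were also counted. At visible ends the U share was 6.32% after A, 7.56% after C, 9.01% after G and 7.38% after U, and without the miR-181 arms it was 4.68% after U and 9.25% after G. This change lay in the first time course, where the value after U went from 8.05% to 2.92% without the miR-181 arms, whereas in the second it went from 6.83% to 6.00%. Tags with a second added base were compared with those that had the U alone at the same ends. In the first time course there were 3.94 U-U, 2.74 U-A, 2.29 U-G and 2.47 U-C reads per 100 reads with U alone, and in the second 9.50, 2.99, 15.6 and 0.432. U followed by C was thus the rarest of the 4 in the second time course.

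The U share was set side by side for the arms of the hairpin. The median of the 3p arms was 3.26% and that of the 5p arms 2.48%, and at visible ends 4.98% and 4.11%. The median of the 3p arms exceeded that of the 5p arms in 9 of 12 libraries. The exceptions were 1h-1, 3h-1 and 6h-1, with differences of -0.435, -0.813 and -1.67 percentage points. In the second time course the difference was 1.47 ± 0.661 points (SD, n = 6), positive in all 6 libraries. It was positive with tags of 21 nt or more in 12 of 12 libraries, at 0.368 ± 0.339 points in the first and 1.84 ± 0.478 points in the second time course (SD, n = 6 each).

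The effect of ECS on the U share was tested at each time point against NT. Of 189 arms, 0 (0%) passed an adjusted p of 0.05 at 0.5, 1, 3, 6 or 24 h by edgeR's quasi-likelihood test, and an unadjusted p under 0.05 was reached by 1 arm at 6 h, 1 at 24 h and 0 at the other times. DESeq2 and limma also called 0 arms at each time, with at most 4 at an unadjusted p under 0.05. With the time course as block 0 arms were called, with 8, 4, 3, 4 and 4 at an unadjusted p under 0.05. In tags of 21 nt or more 0 of 153 arms (0%) were called at each time. The median SE of a log2 ratio was 0.96 at 0.5 h and 1.04 at 6 h, and with the time course as block 0.68 at 0.5 h and 0.72 at 6 h, beside 0.42 for the comparison between the time courses. The arms with the smallest p were miR-381-3p at 0.5 h (log2 ratio 2.01, SE 1.01) and at 1 h (1.98, SE 1.00), miR-342-5p at 3 h (-1.43, SE 0.74), miR-137-3p at 6 h (-1.98, SE 0.77, unadjusted p = 0.0267, edgeR adjusted p = 0.994) and miR-30a-5p at 24 h (-1.74, SE 0.76, unadjusted p = 0.0439, edgeR adjusted p = 0.996). For miR-137-3p, a neuronal miRNA, the U share in NT-1 was 6.13%, whereas the other 11 libraries lay between 0.935% and 2.24%.

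Within a time course each time point is 1 library against 1 NT library, so the following counts describe these libraries and have no replicate check. In the second time course the U share was above that in NT-2 in 153 of 217 arms at 0.5 h, 133 of 216 at 1 h, 136 of 211 at 3 h, 84 of 166 at 6 h and 125 of 212 at 24 h. In the first it was above that in NT-1 in 63 of 166, 67 of 169, 46 of 154, 56 of 134 and 53 of 166 arms in the same order. The 5 counts of a time course share 1 NT library. In tags of 21 nt or more, the arms above NT-2 were 154 of 212 at 0.5 h, 145 of 213 at 1 h, 152 of 206 at 3 h, 52 of 157 at 6 h and 138 of 211 at 24 h. Those above NT-1 were 67 of 117, 47 of 124, 31 of 118, 19 of 100 and 60 of 118 in the same order. In the second time course more arms were thus above NT than below it with either set of tags, except at 6 h with tags of 21 nt or more. In the first, fewer arms were above NT than below it at every time with all tags. With tags of 21 nt or more this was so at 1 h, 3 h and 6 h. The pooled share of added A was 1.62% in NT-1 and 2.79%, 3.49%, 3.999%, 3.95% and 3.94% in the ECS libraries of the first time course, in order of time. In the second it was 2.96% in NT-2 and 5.26%, 3.89%, 4.03%, 2.33% and 3.02%. Added A was thus above NT at all times of the first time course, where most arms had less U than in NT-1 when all tags were counted. The arms miR-26a-5p and miR-27b-3p, both members of the lists on tailing, are given as examples in tags of 21 nt or more. For miR-26a-5p the share was 1.64% in NT-2, 7.38% in 0.5h-2, 6.71% in 1h-2, 8.77% in 3h-2, 3.77% in 6h-2 and 5.77% in 24h-2, but 2.47% in NT-1 and 0.0907% to 0.784% in the ECS libraries of the first time course. For miR-27b-3p it was 3.52%, 17.03%, 7.16%, 9.11%, 3.01% and 7.93% in the second time course, and 1.37% in NT-1 against 0.414% to 1.61%. The ECS libraries of miR-26a-5p were thus above NT in the second time course; in the first they were below it.

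Lists of miRNAs linked to uridylation or to tailing were counted next. The arms with described target-directed degradation, a process in which a target RNA triggers loss of the miRNA along with 3′ tailing, lay on both sides of the median over all arms (2.82%). The median U share was 0.498% for miR-7a-5p, 0.557% for miR-7b-5p, 0.132% for miR-29b-3p, 0.844% for miR-30c-5p, 5.63% for miR-27a-3p and 6.43% for miR-27b-3p. For miR-29b-3p, 85.6% of the exact reads ended before a U of the hairpin. Of the 4 of these 6 arms that could be tested, 0 differed between the time courses (68 of 189 over all arms, 36.0%). With tags of 21 nt or more 3 of the 4 were higher in the second, beside 81 of 153 arms (52.9%). Their median log2 ratio was 2.61, beside 2.11 over all arms tested. The miR-26 arms, for which uridylation by Zcchc11 has been described, had medians of 4.35% for miR-26a-5p and 5.62% for miR-26b-5p, and U exceeded A in both. Of the mirtrons, which are made by splicing in place of Drosha, miR-1224-5p had 11.9% and miR-1981-5p 2.72%.

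The cell type markers ran across the whole range. Neuronal miR-124-3p had 9.09%, miR-9-5p 3.81%, miR-9-3p 2.85% and miR-128-3p 0.0719%, and miR-124-3p and miR-128-3p were among the 10 arms with the most exact reads, both of which mark neurons. The other arms of those 10 were let-7f-5p, let-7g-5p, let-7c-5p and let-7a-5p, miR-29a-3p (1.10%), miR-101a-3p (3.20%), miR-143-3p (4.97%) and miR-1839-5p (2.19%). Oligodendrocyte miR-219a-5p and miR-338-3p had 0.518% and 2.33%. Of the vessel markers, miR-126a-3p had 18.1%, miR-126a-5p 10.8% and miR-143-3p 4.97%, and all 3 were higher in the second time course, beside 44 of 189 arms (23.3%). Of the 4 neuronal arms 1 was higher, a share near that of all arms. All 4 were higher with tags of 21 nt or more, beside 81 of 153 arms (52.9%). Blood cell miR-451a-5p, miR-144-3p, miR-144-5p and miR-142a-5p had 0.626%, 3.14%, 1.67% and 3.04%, and the muscle miRNAs miR-1a-3p and miR-206-3p 0.0359% and 1.41%. Of the blood arms above, 2 were tested between the time courses and 1 was higher. A further blood cell arm, miR-486-5p, was also higher (log2 ratio 1.82, SE 0.63, edgeR adjusted p = 0.0412). Its U-added counts were the same as those of miR-3107-5p in every library. Neither of the mirtrons nor of the miR-26 arms was called, and the muscle arm tested was not called. Over all arms, 68 of 189 were called (36.0%) and 44 were called higher (23.3%).

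At the limit of 1000 exact reads, miR-342-5p (1036 reads) and miR-146a-5p (1008 reads) were just inside, and miR-135a-5p (997 reads) and miR-1298-3p (996 reads) were just outside.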

How the data were processed

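Small RNA from the hippocampus was sequenced in 12 libraries. The authors removed adapters with the miR-Intess pipeline and deposited each insert of at least 18 nt with its raw read count per library, before alignment and without normalization. The authors mapped reads to mouse assembly 37, whereas tags were matched here to GENCODE M21 hairpins on GRCm38 and named by RefSeq. Counts of tags that matched several arms were split equally, and fractions were rounded for the tests. Medians over libraries leave out libraries with fewer than 100 reads of the arm.

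U-added counts per arm were tested with edgeR 4.0.16 (glmQLFit and glmQLFTest, R 4.3.3), with the log of the arm total as offset, on arms with at least 10 U-added counts in at least 2 libraries. P-values were adjusted by Benjamini-Hochberg over all arms tested. U was compared with A, C and G in the same way with the library as block. DESeq2 1.42.0 and limma 3.58.1 (log2 odds, 0.5 added to counts) served as alternatives, and scripts were tested on simulated data. Tables used Python (3.11.15) and its packages pandas 2.3.3, numpy 2.4.6 and scipy 1.17.1.

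Replicate numbers mark the time course, as the study describes. Deviations of same-numbered libraries correlated across 189 arms at 0.0897 to 0.767 over 15 pairs of time points, and at 0.260 to 0.767 over the 10 pairs without NT.

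The members and lists were chosen with earlier results of these data known. Arms were named when they had the 10 highest median U shares, the 10 highest exact counts, belonged to a list, lay next to the limit, or had the 10 largest called ratios of a test (the 3 smallest p where none was called). miR-24-3p, miR-140-3p, miR-382-3p and the arms given as turning or opposite examples were named after their values were seen.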

Additional observations from a re-analysis of the deposited data

Results flagged for a closer look

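Libraries were checked for a value far from the other 5 of the same time course (Dixon's test for 6 values) in 20 results, each in 2 time courses, and chance flags about 1 in 20 groups. NT-1 lay far below the rest of the first time course in all 3 arms of miR-181, at 22.2% for miR-181b-5p (others 72.3% to 81.7%), 18.4% for miR-181a-5p (others 57.3% to 75.1%) and 14.7% for miR-181d-5p (others 49.2% to 59.8%). NT-1 also had 51.5% of its exact reads at 18 or 19 nt, and the part of this in the result was not tested. In the second time course 6h-2, which had the fewest reads of that course, was high for miR-181b-5p at 53.4% (others 36.0% to 40.5%), for miR-181a-5p at 33.2% (others 19.97% to 22.7%) and for miR-770-3p at 32.4% (others 17.3% to 22.6%). It was low for miR-126a-3p at 9.63% (others 18.1% to 23.1%) and for miR-124-3p at 7.38% (others 13.0% to 14.7%). For miR-24-3p the 5 ECS libraries were all below NT in the first time course, by a mean of -2.22 percentage points, and all above it in the second, by a mean of 16.4 points, and this difference was not tested.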

How the results depend on the processing

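The count of arms called at each time after ECS was 0 under every alternative run, leave-one-out included. In simulated counts with a 4-fold change in 40 arms, the comparison of 1 time with NT called 33 of them at a dispersion (spread between libraries) of 0.1. At a dispersion of 0.3 it called 5 of 40. A count of 0 therefore does not show that no arm changed. The replicate block (time course as block) also gave 0, with tags of 21 nt or more, without NT replicate 1, with the NT libraries exchanged and in DESeq2, the last 4 added after seeing the data. For the time courses, leaving out 1 library gave 26 to 73 arms, with 26 and 28 when a 1 h library was left out, and the other alternatives gave 46 to 83. The cause of the low counts was not tested. Leave-one-out counts were 108 to 116 for U against A, 148 to 156 for C and 147 to 154 for G. With arms of 10000 or more exact reads, which leaves fewer arms to test, the counts were 73 for A, 94 for C and 92 for G. The pooled U share, a mean of 3.52% over libraries, was 1.52% with tags of 21 nt or more, 6.95% at visible ends and 3.32% to 3.64% with 1 library left out. The difference between 3p and 5p arms, a mean of 0.571 points, was 0.425 to 0.774 with 1 library left out, 1.11 with tags of 21 nt or more and 0.214 with arms of 10000 or more exact reads, where it was above 0 in 7 of 12 libraries. Among named arms, the median moved by more than 1 SD in 16 of 47 with tags of 21 nt or more and in 20 of 48 at visible ends, and in 0 of 576 with 1 library left out. Counting tags that match the genome beside the hairpin as exact was not run, since no genome sequence was used here.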

Other observations

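The 3p arms of the let-7 family lay under the limit of 1000 exact reads and were not among the 235 arms. Precursors of group II, which have a 1-nt 3′ overhang after Drosha, are known to receive 1 U before Dicer cuts them, and the 3p arm keeps that end. Over all libraries the U share was 48.4% for let-7b (104 of 215 reads, Wilson 95% interval 41.8% to 55.0%), 80.6% for let-7f-2 (58 of 72 reads, 70.0% to 88.0%), 43.6% for let-7f-1 (24 of 55 reads, 31.4% to 56.7%), 27.3% for let-7g (15 of 55 reads, 17.3% to 40.2%) and 27.2% for let-7i (105 of 386 reads, 23.0% to 31.8%). Reads shared by let-7a-1 of group II and let-7c-2 of group I gave 39.8% (246 of 618 reads, 36.0% to 43.7%). The group I precursor let-7e had 11.5% (61 of 531 reads, 9.05% to 14.5%), with U-added reads in 7 of 12 libraries. For let-7d, also of group II, 2 of 668 reads carried an added U (0.299%), and 78.5% of its exact reads ended before a U of the hairpin. For miR-98, also of group II, the share was 6.02% (5 of 83 reads), and for let-7c-1 of group I it was 0 of 21 reads. These shares pool libraries and cover counting error only, and the groups were not compared by a test.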
